A study of Gallus gallus with 24 samples.

Results

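The T-box transcription factors TBX2, TBX3, TBX5, TBX18 and TBX20 were followed across the embryonic chick sinoatrial node (SAN) and atria. These 5 genes were chosen by name, all 5 were in the table of 12422 gene symbols, and their lowest value in any library was 3.54 on the log2 scale, against a lowest value of -5.87 in the table. Tissue was taken from chick (Gallus gallus) embryos at Hamburger-Hamilton (HH) stage 30 and profiled by RNA sequencing. Libraries fell into 6 groups: SAN and atria taken fresh (t0), SAN and atria kept for 14 hours with vehicle (water), and SAN and atria kept for 14 hours with CN03 at 0.25 ug/ml, with 4 libraries in each group and 24 in all. CN03 is a protein reagent that activates the small GTPase RhoA, which controls actin tension in cells. Each library came from a pool of 5 tissue preparations, and all cultured tissue was held in the same serum-containing medium.

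T-box factors share a DNA-binding domain, the T-box, and bind similar short DNA elements, so that activators and repressors of the family can meet at the same target genes. In the vertebrate heart, TBX5 and TBX20 act with NKX2-5 and GATA factors in the muscle of the chambers, whereas TBX2 and TBX3 hold chamber genes silent in the atrioventricular canal and the conduction system. In the mouse, TBX3 is needed for the pacemaker gene program of the SAN, and TBX18 is needed to form the head of the SAN from the sinus venosus and is also made in the epicardium.

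The values are normalised log2 expression levels, and their unit before the logarithm and the number of reads behind them are unknown. They are not known to be corrected for gene length, so levels were compared only within a gene. Replicate libraries of a group correlated across genes with r between 0.977 and 0.992. SHOX2, a pacemaker transcription factor, was higher in freshly isolated SAN than atria by a log2 fold change (Log2FC) of 6.23, and HCN4, the main pacemaker channel, by 3.47. Of 12 cardiomyocyte markers, 9 were lower in freshly isolated SAN than atria and none was higher, where 17.1% of all genes were lower and 18.7% higher. The summed linear level of these markers ran from 8445 to 12545 in the SAN pools and from 21946 to 29604 in the atrial pools. In such bulk samples, fewer cells of a type and less RNA per cell cannot be told apart. Differences were tested with limma over all 24 libraries, with p-values adjusted over all genes, and a gene was called at an adjusted p under 0.05. The p-values measure the spread between pools.

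**Figure D1:**
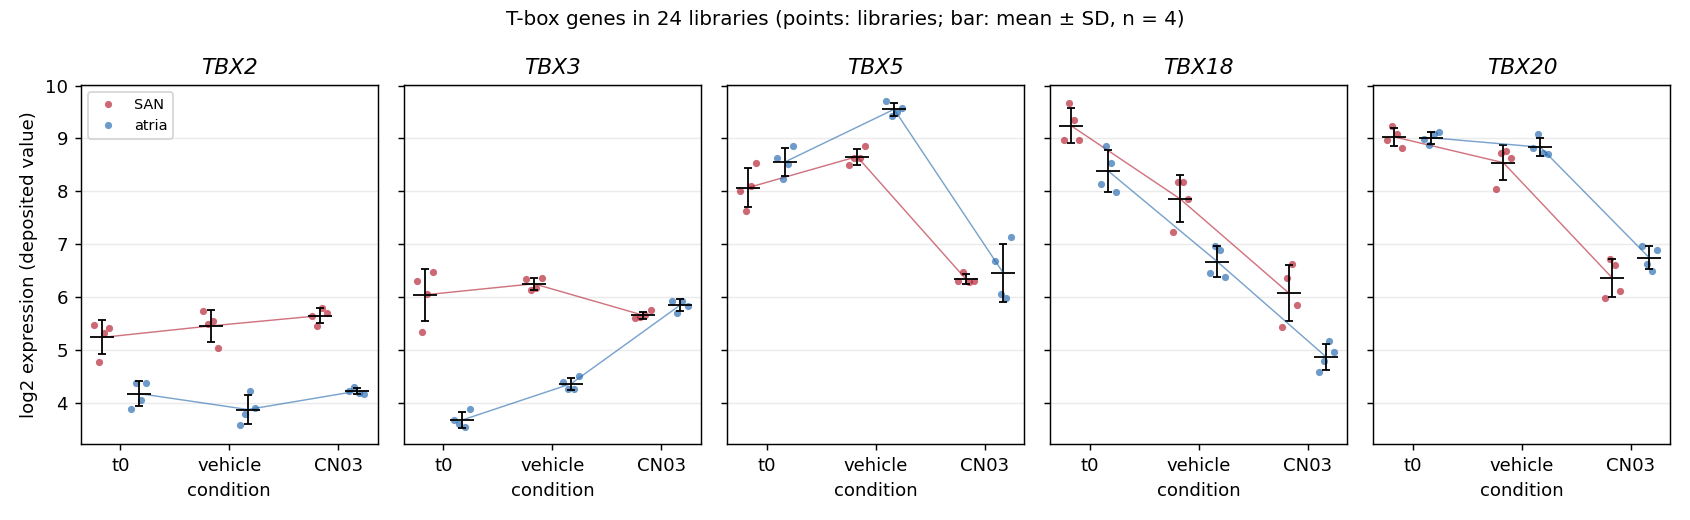
Log2 expression of the 5 T-box genes in each of the 24 libraries (points), by tissue and condition, with the mean and SD of the 4 pools of each group (bars) and lines that join the means of a tissue. TBX3 in atria climbs from a mean of 3.67 at t0 to 5.85 with CN03, while TBX5, TBX18 and TBX20 are lowest with CN03 in both tissues.

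TBX3, a repressor of chamber muscle genes, separated the tissues at t0 and with vehicle and did not separate them with CN03. Its level rose with CN03 in atria and fell slightly in SAN, and the difference between these responses passed the test. The 4 pools of freshly isolated SAN stood at 6.30, 5.35, 6.05 and 6.47 for TBX3, and those of freshly isolated atria at 3.67, 3.61, 3.54 and 3.88. With vehicle, TBX3 stood at 6.35, 6.13, 6.18 and 6.35 in SAN and at 4.39, 4.27, 4.27 and 4.52 in atria. With CN03, it stood at 5.60, 5.62, 5.65 and 5.76 in SAN and at 5.93, 5.70, 5.92 and 5.83 in atria. Every SAN pool was above every atrial pool at t0 and with vehicle, while the CN03-treated pools of both tissues overlapped.

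At t0, TBX3 was higher in SAN by a Log2FC of 2.37 (SE 0.149, limma adjusted p = 2.08e-11), a 5.17-fold difference that was larger than that of 98.1% of all genes. With vehicle the tissue difference was 1.89 (adjusted p = 8.01e-10), and with CN03 it was -0.19 (SE 0.149, adjusted p = 0.341). In atria, CN03 raised TBX3 above vehicle by 1.49 (SE 0.149, adjusted p = 4.78e-09), or 2.80-fold, and no CN03-treated pool overlapped a vehicle-treated one. In SAN, TBX3 fell by 0.59 with CN03 (SE 0.149, adjusted p = 0.00114), also without overlap, a change larger than that of 52.1% of all genes. The difference between these responses, SAN minus atria, was -2.08 (SE 0.211, adjusted p = 2.72e-07) and was larger than that of 98.7% of all genes. The fall of TBX3 in SAN did not pass a limma test against a Log2FC of 0.5 in place of 0 (adjusted p = 0.556).

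Culture with vehicle alone also raised TBX3 in atria, by 0.69 (SE 0.149, adjusted p = 0.000398), without overlap between the pools. The rise of TBX3 did not pass the limma test against a Log2FC of 0.5 (adjusted p = 0.377). In SAN its change with culture was 0.21 (limma adjusted p = 0.25), and from -0.02 to 0.35 when 1 library was left out. The SAN value passed without replicate 4 of SAN at t0 (0.35, adjusted p = 0.0459). Against t0, the CN03-treated atria were higher in TBX3 by 2.17 (SE 0.149, adjusted p = 5.03e-12), and the CN03-treated SAN were lower by a Log2FC of -0.38 (adjusted p = 0.0238) with overlapping pools. That last call was lost without replicate 1 or replicate 4 of SAN at t0 (Log2FC -0.30 and -0.24), without replicate 1 of CN03-treated SAN (-0.37), and after median centring of the libraries (-0.32, adjusted p = 0.0571). It was also lost when only the compared groups were fitted (limma adjusted p = 0.0961) and in the test against a Log2FC of 0.5. Ordered by mean, the TBX3 levels of vehicle-treated SAN, freshly isolated SAN, CN03-treated atria and CN03-treated SAN each overlapped with the next, and a gap of 1.30 separated them from vehicle-treated atria.

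TBX2, the paralog of TBX3 and likewise a repressor of chamber genes, was higher in SAN than atria in every condition, and its mean shifted by no more than 0.41 between the conditions of a tissue. The 4 pools of freshly isolated SAN stood at 5.46, 4.76, 5.31 and 5.41 for TBX2, and those of atria at 3.89, 4.38, 4.06 and 4.38. With vehicle, TBX2 stood at 5.74, 5.48, 5.55 and 5.04 in SAN and at 3.58, 3.78, 4.23 and 3.90 in atria. With CN03, it stood at 5.64, 5.46, 5.80 and 5.70 in SAN and at 4.23, 4.30, 4.19 and 4.17 in atria. All 12 SAN pools were above all 12 atrial pools, whatever the condition.

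Between the tissues, TBX2 differed by 1.06 before culture (SE 0.159, limma adjusted p = 1.18e-05), 1.58 after vehicle (adjusted p = 3.42e-08) and 1.43 after CN03 (adjusted p = 2.64e-07). CN03 against vehicle gave a Log2FC of 0.19 in SAN (SE 0.159, adjusted p = 0.279) and 0.35 in atria (SE 0.159, adjusted p = 0.0541), with overlapping pools in both tissues. The atrial value passed without replicate 3 of the vehicle-treated atria (0.47, adjusted p = 0.0141), after quantile normalization (0.41) and when only the compared groups were fitted (adjusted p = 0.0318). Culture with vehicle gave 0.22 in SAN (adjusted p = 0.259) and -0.30 in atria (adjusted p = 0.106). The atrial value passed without replicate 1 of freshly isolated atria (-0.40) or replicate 3 of vehicle-treated atria (-0.42). Against t0, TBX2 in CN03-treated SAN was higher by 0.41 (adjusted p = 0.0226). This call was lost without replicate 2 of SAN at t0 (0.25), without replicate 3 of CN03-treated SAN (0.36) and after quantile normalization (0.31). It was also lost in the test against a Log2FC of 0.5. In CN03-treated atria the value against t0 was 0.04 (adjusted p = 0.809). In atria, TBX3 minus TBX2 within a library averaged -0.50 ± 0.225 (SD, n = 4) before culture, 0.49 ± 0.328 after vehicle and 1.63 ± 0.151 after CN03. This difference was thus higher after culture alone, and higher again with CN03. The CN03 responses of the 2 repressors were not tested against each other.

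TBX5 is an activator of atrial and conduction genes and the gene mutated in human Holt-Oram syndrome. Of the 5 genes, TBX5 had the deepest mean fall with CN03 in both tissues, although TBX20 was close in SAN (-2.32 against -2.18). It was also higher in atria than SAN with vehicle, and rose with culture in vehicle alone. The 4 pools of freshly isolated SAN stood at 8.01, 7.63, 8.10 and 8.54 for TBX5, and those of atria at 8.63, 8.23, 8.51 and 8.86. With vehicle, TBX5 stood at 8.50, 8.63, 8.63 and 8.86 in SAN and at 9.70, 9.42, 9.50 and 9.59 in atria. With CN03, it stood at 6.30, 6.48, 6.28 and 6.30 in SAN and at 6.68, 6.06, 5.98 and 7.13 in atria. All 8 CN03-treated pools were below all 16 other pools, and the atrial pools with CN03 were spread more widely than any other group of this gene.

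Against vehicle, TBX5 in CN03-treated SAN fell by 2.32 (SE 0.194, limma adjusted p = 2.62e-10), to a level 4.99-fold lower. In atria it fell by 3.09 (SE 0.194, adjusted p = 1.21e-12), to a level 8.51-fold lower, a change larger than that of 96.6% of all genes. The difference between the responses, SAN minus atria, was 0.77 (SE 0.274, adjusted p = 0.0396). This call rested on the choice of libraries and scaling: it was lost after quantile normalization (0.56, adjusted p = 0.099), without a mean-variance trend (adjusted p = 0.0544), and in 11 of 16 fits that left out 1 library. Those were the fits without replicates 1, 2 or 4 of CN03-treated SAN, replicates 1, 2 or 3 of vehicle-treated SAN, replicates 2 or 3 of CN03-treated atria, or replicates 1, 3 or 4 of vehicle-treated atria, with values from 0.61 to 0.79.

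Culture with vehicle raised TBX5 by 0.99 in atria (SE 0.194, limma adjusted p = 0.000124), without overlap, and by 0.59 in SAN (adjusted p = 0.0143), where the pools overlapped. The rise of TBX5 in SAN was lost without replicate 2 of SAN at t0 (0.44, adjusted p = 0.0714) and in the test against a Log2FC of 0.5. Between tissues, TBX5 was lower in SAN by a Log2FC of -0.89 with vehicle (SE 0.194, adjusted p = 0.000655). This vehicle value did not pass the limma test against a Log2FC of 0.5 (adjusted p = 0.203). At t0 the difference was -0.49 (SE 0.194, adjusted p = 0.0529), and in the fit with a replicate block it passed (adjusted p = 0.0155). It also passed without replicate 4 of SAN at t0 (-0.64) or replicate 2 of atria at t0 (-0.60). With CN03 it was -0.12 (adjusted p = 0.647). Against t0, the CN03-treated pools were lower in TBX5 by a Log2FC of -1.73 in SAN (adjusted p = 2.6e-08) and -2.10 in atria (adjusted p = 9.64e-10).

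TBX3 and TBX5 lie on the same chromosome in the chicken GRCg7b assembly, TBX3 at chr15:11922573-12225420 and TBX5 at chr15:12317331-12358320, with 91910 bases between the gene models. TBX2 lies at chr19:8115353-8124715, TBX18 at chr3:76935586-76961482 and TBX20 at chr2:47151932-47188712. With CN03 in atria, TBX3 rose and TBX5 fell, so that the difference between their log2 values shrank. Within a library, TBX3 minus TBX5 was -4.88 ± 0.173 (SD, n = 4) in freshly isolated atria, -5.19 ± 0.105 with vehicle and -0.62 ± 0.537 with CN03. The SAN values were -2.03 ± 0.241 at t0, -2.40 ± 0.173 after vehicle and -0.68 ± 0.134 after CN03. The lowest CN03-treated library of either tissue, at -1.30, was above every t0 and vehicle-treated library, and the highest was at -0.05.

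**Figure D2:**
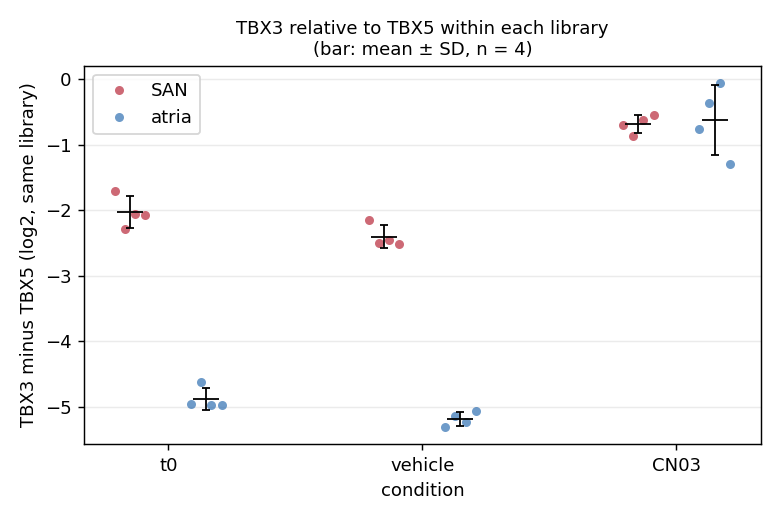
TBX3 minus TBX5 (log2) within each library (points), by condition and tissue, with the mean and SD of the 4 pools (bars). SAN and atria lie apart at t0 (-2.03 against -4.88) and with vehicle (-2.40 against -5.19), and overlap with CN03 (-0.68 against -0.62).

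TBX20, which acts in chamber growth and in the mouse holds Tbx2 in check, did not separate the tissues at t0 or with vehicle and fell with CN03 in both. The 4 pools of freshly isolated SAN stood at 8.98, 9.24, 9.08 and 8.83 for TBX20, and those of atria at 8.98, 8.87, 9.08 and 9.13. With vehicle, TBX20 stood at 8.05, 8.72, 8.77 and 8.63 in SAN and at 8.82, 9.08, 8.73 and 8.71 in atria. With CN03, it stood at 5.98, 6.72, 6.62 and 6.12 in SAN and at 6.96, 6.63, 6.50 and 6.89 in atria. The tissues overlapped in every condition, and every CN03-treated pool was below every other pool.

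Against vehicle, TBX20 fell by 2.18 with CN03 in SAN (SE 0.159, limma adjusted p = 2.54e-11) and by 2.09 in atria (SE 0.159, adjusted p = 3.66e-11). The difference between these responses was -0.09 (SE 0.224, adjusted p = 0.805). Against t0, TBX20 was lower by a Log2FC of -2.67 in CN03-treated SAN (adjusted p = 4.64e-13) and -2.27 in CN03-treated atria (adjusted p = 6.76e-12). Culture with vehicle lowered TBX20 in SAN by a Log2FC of -0.49 (SE 0.159, adjusted p = 0.0132), and this call was lost without replicate 1 of vehicle-treated SAN (-0.32, adjusted p = 0.0782), its lowest pool. The call was also lost in the test against a Log2FC of 0.5. In atria the culture value was -0.18 (adjusted p = 0.348). Between tissues, TBX20 differed by 0.02 at t0 (SE 0.159, adjusted p = 0.949), by -0.29 with vehicle (adjusted p = 0.144) and by -0.38 with CN03 (adjusted p = 0.0611). The CN03 value passed without replicate 2 (-0.50) or replicate 3 (-0.47) of CN03-treated SAN, or without replicate 3 of CN03-treated atria (-0.46), and in the fit with a replicate block (adjusted p = 0.0491).

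TBX18, which marks the sinus venosus progenitors of the SAN head and the epicardium, was higher in SAN than atria in every condition and fell both with culture and with CN03. It had the widest range of the 5 genes, 4.37 between its highest and lowest group means, a 20.7-fold range. The 4 pools of freshly isolated SAN stood at 8.98, 9.66, 9.35 and 8.97 for TBX18, and those of atria at 8.14, 8.86, 8.54 and 7.99. With vehicle, TBX18 stood at 7.23, 8.17, 8.17 and 7.85 in SAN and at 6.46, 6.97, 6.88 and 6.38 in atria. With CN03, it stood at 5.44, 6.37, 6.62 and 5.85 in SAN and at 4.57, 4.78, 5.16 and 4.95 in atria. Within each condition every SAN pool was above every atrial pool, and within each tissue the 3 conditions did not overlap.

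Between the tissues, TBX18 differed by 0.86 before culture (SE 0.244, limma adjusted p = 0.00811), 1.18 after vehicle (adjusted p = 0.000394) and 1.20 after CN03 (adjusted p = 0.000436). In the limma test against a Log2FC of 0.5, this difference did not pass before culture (adjusted p = 0.563) or after CN03 (adjusted p = 0.0661). Culture with vehicle lowered TBX18 by a Log2FC of -1.38 in SAN (SE 0.244, adjusted p = 5.57e-05) and -1.71 in atria (SE 0.244, adjusted p = 2.3e-06). Against vehicle, TBX18 with CN03 fell by 1.79 in SAN (SE 0.244, adjusted p = 7.15e-07) and by 1.80 in atria (SE 0.244, adjusted p = 5.48e-07). The responses of the tissues to CN03 differed by 0.02 (SE 0.345, adjusted p = 0.978). Against t0, TBX18 was lower with CN03 by a Log2FC of -3.17 in SAN (adjusted p = 4.44e-11) and -3.52 in atria (adjusted p = 5.84e-12).

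Markers of the epicardium, the other cell layer known to make TBX18, moved with part of this pattern. Of 15 listed epicardial and mesothelial markers, 13 were in the table, and none of these was at the table's lowest value in any library. Their summed linear level ran from 1300.0 to 1735 in freshly isolated SAN, from 972 to 1138 with vehicle and from 879 to 1030 with CN03. In atria it ran from 1386 to 2207 at t0, from 765 to 1028 with vehicle and from 904 to 999.5 with CN03. The summed level, which is carried by the most abundant markers, was thus lower after culture. Its ranges with vehicle and with CN03 overlapped in both tissues, where those of TBX18 did not. With culture, 8 of the 13 markers fell and 3 rose in SAN, where 26.1% of all genes fell and 25.3% rose, and 8 fell and 2 rose in atria, where 29.8% fell and 29.2% rose. With CN03 against vehicle, 5 fell and 6 rose in SAN, where 37.8% of all genes fell and 33.4% rose, and 5 fell and 7 rose in atria, where 36.8% fell and 35.7% rose. The falls with CN03 were thus near the share over all genes. BNC1, an epicardial zinc-finger factor, fell the most of the list, with Log2FC values of -3.11 in SAN and -2.92 in atria. The largest rise in SAN was that of SFRP5, a secreted WNT inhibitor (1.95, SE 0.350), from a low mean log2 level of -1.05 with vehicle. The largest in atria was that of CLDN1, a tight junction protein (3.00, SE 0.554). Over the 24 libraries, TBX18 and the log2 sum of the list had a Pearson r of 0.75, as a description over libraries that share groups. This r was not particular to the epicardial list, since TBX18 had an r of 0.796 with the macrophage list, 0.775 with the erythroid list and -0.857 with that of working atrial muscle. The part of the epicardium in the changes of TBX18 was not tested.

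**Figure D3:**
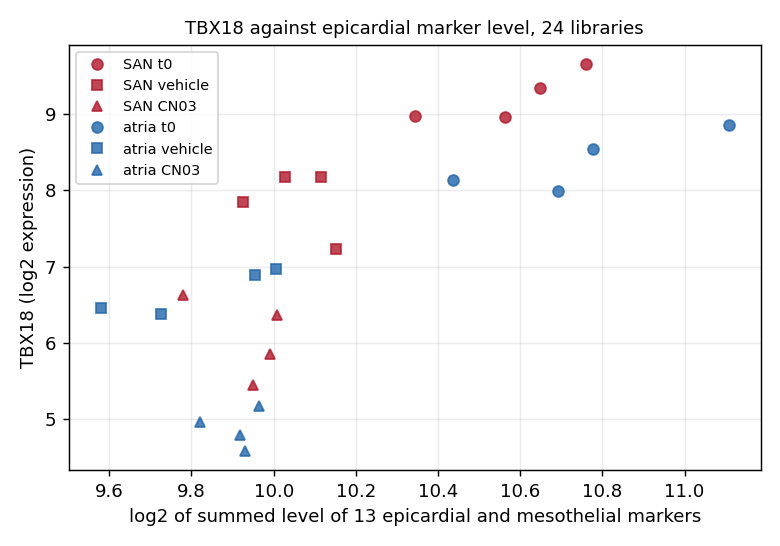
TBX18 (log2) against the log2 of the summed linear level of 13 epicardial and mesothelial markers in each of the 24 libraries (points), by tissue and condition. The t0 libraries have the highest marker sums of both tissues. Within each tissue, the vehicle-treated and CN03-treated libraries overlap in the marker sum and differ in TBX18. The sum is carried by the most abundant markers and joins markers that fell with CN03 and markers that rose.

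The counts over the 5 genes were read against those over all 12422 genes, and all of these comparisons share libraries with one another. At t0, 3 of the 5 genes were higher in SAN (TBX2, TBX3 and TBX18), where 18.7% of all genes were, and 0 were lower, where 17.1% of all genes were. TBX5 had an unadjusted limma p of 0.0193 in that comparison, the only one of the 5 lower in SAN at an unadjusted p under 0.05. In either direction, 4 of the 5 genes passed that unadjusted threshold, as did 5513 of all 12422 genes. With the replicate block, which gives each pool number 1 shared effect over all 6 groups, TBX5 was called lower in SAN (limma adjusted p = 0.0155). With vehicle, the same 3 genes were higher in SAN, against 22.8% of all genes, and 1, TBX5, was lower, against 19.8%. With CN03, 2 were higher in SAN (TBX2 and TBX18), against 17.8% of all genes, and 0 were lower, against 20.2%. Of the genes lower in SAN there, TBX20 alone of the 5 had an unadjusted limma p under 0.05 (0.0244), and it was called with the replicate block. In either direction, 3 of the 5 genes and 5780 of all 12422 genes passed the unadjusted threshold with CN03.

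With culture in SAN, 1 of the 5 genes rose (TBX5), where 25.3% of all genes did, and 2 fell (TBX18 and TBX20), where 26.1% did. In atria, 2 rose (TBX3 and TBX5), against 29.2% of all genes, and 1 fell (TBX18), against 29.8%. In limma, 0 of the 5 genes differed between the tissues in their response to culture, where 6.89% of all genes were higher in SAN and 6.09% lower. At an unadjusted limma p under 0.05 there were 2, where 3198 of all 12422 genes passed in either direction. They were TBX2 with 0.52 (SE 0.225, unadjusted p = 0.0295) and TBX3 with -0.48 (SE 0.211, unadjusted p = 0.0337). TBX2 passed the adjusted threshold without replicate 4 of vehicle-treated SAN (0.66, adjusted p = 0.0465), and TBX3 without replicate 2 of SAN at t0 (-0.71, adjusted p = 0.00132).

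With CN03 against vehicle, 4 of the 5 genes fell in SAN (TBX3, TBX5, TBX18 and TBX20), where 37.8% of all genes fell, and none rose, where 33.4% of all genes rose. None rose at an unadjusted limma p under 0.05 either, a threshold that 9098 of all 12422 genes passed in either direction. Of the 4, 3 had a Log2FC past -1, where 17.1% of all genes did. In atria, 3 fell (TBX5, TBX18 and TBX20), against 36.8% of all genes, each by more than that limit, against 15.6%, and 1 rose (TBX3), against 35.7%. In size, the change had a median of 1.79 over the 5 genes in SAN and 1.80 in atria, where all genes had 0.56 and 0.59. Compared with t0, CN03-treated SAN had 1 of the 5 genes higher (TBX2), against 34.9% of all genes, and 4 lower, against 39.7%. CN03-treated atria had 1 higher (TBX3), against 36.4%, and 3 lower, against 39.1%. Of the differences between the tissues in the CN03 response, 1 was positive (TBX5), against 11.7% of all genes, and 1 was negative (TBX3), against 15.4%.

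**Figure D4:**
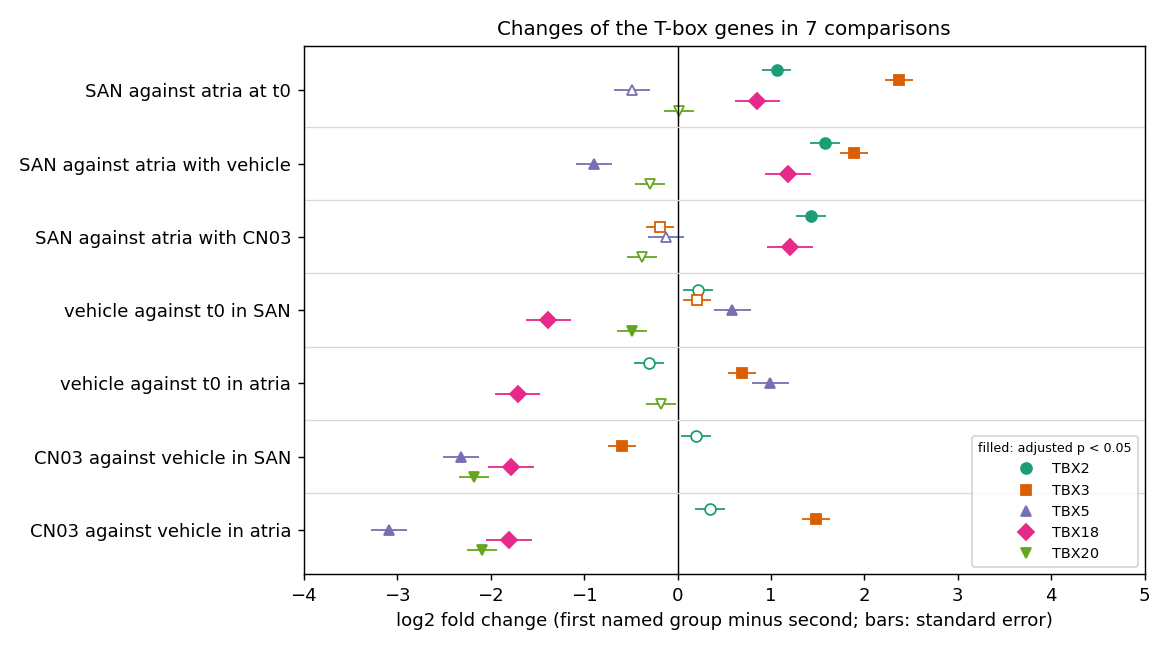
Log2 fold change of each T-box gene in 7 of the comparisons, with its standard error (bars) and filled symbols for an adjusted p under 0.05. With CN03 against vehicle, TBX5, TBX18 and TBX20 lie between -1.79 and -3.09 in both tissues, while TBX3 lies at -0.59 in SAN and at 1.49 in atria.

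Over the 24 libraries, TBX5 and TBX20 had a Pearson r of 0.871, TBX18 and TBX20 of 0.812, and TBX2 and TBX3 of 0.693, as descriptions of libraries that share groups. When each library was set against its group mean, TBX18 and TBX20 had an r of 0.595, TBX2 and TBX3 of 0.461, and TBX5 and TBX20 of 0.235. TBX3 and TBX5 had an r of -0.423 over the 24 libraries and of 0.517 against the group means. Among the 10348 other genes with a mean log2 level above 2, the pattern most like that of TBX3 over the 24 libraries was that of PDE8A, a cAMP phosphodiesterase (r = 0.950), followed by TGFBI, SEMA6A, TMTC1 and DBNDD1. For TBX2 it was that of MAP4, a microtubule-associated protein (r = 0.939), followed by LPAR6, HOXA3, PRKAR2B and SNAI1. TBX5 was closest to NDRG4 (r = 0.985), then to NFYC, NECAB3, MTMR1 and LHFPL1. TBX20 was closest to NBR1, a receptor of autophagy (r = 0.985), then to LMNAL, DEF6, GTPBP1 and PNPLA7. TBX18 was closest to FAM188B (r = 0.979), then to FAM171A1, DDR2L, CASKIN2 and ADGRA2.

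Genes that TBX2 or TBX3 are known to repress in heart muscle were mostly lower in SAN than atria in each condition. Of 10 such genes, 8 were in the table, and at t0 6 of the 8 were lower in SAN and none was higher, with a median Log2FC of -1.35 against 0.02 over all genes, of which 17.1% were lower. With vehicle, 5 were lower and 1 higher, GJA1, a gap junction gene, at 0.93, where 19.8% of all genes were lower and 22.8% higher. With CN03, 7 were lower and none higher (median -1.19), where 20.2% of all genes were lower. In the same comparison TBX3 had a tissue difference of -0.19 that did not pass the test, and TBX2 was higher in SAN by 1.43 (limma adjusted p = 2.64e-07). The part of TBX2 and TBX3 in the levels of these genes was not tested. The lowest at t0 was BMP10, a growth factor of chamber muscle, at -5.45 (SE 0.319, limma adjusted p = 5.56e-12). With CN03 against vehicle, 6 of the 8 rose and 2 fell in SAN (median 0.58), and 6 rose and 1 fell in atria (median 1.19). Over all genes, 33.4% rose and 37.8% fell in SAN (median -0.06), and 35.7% rose and 36.8% fell in atria (median -0.01). NPPA, the atrial natriuretic peptide, rose the most, by 5.53 in SAN and 5.22 in atria, and GJA5, the connexin of fast-conducting atrial muscle, fell the most, at -1.73 and -1.83.

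Genes that TBX5 is known to activate numbered 12, of which 10 were in the table and some are on both lists, NPPA, GJA5 and BMP10 among them. At t0, 2 of the 10 were higher in SAN and 5 lower, against 18.7% and 17.1% of all genes. Under CN03, 4 rose and 4 fell in SAN and 4 rose and 4 fell in atria, with medians of 0.28 and 0.09. These shares were near those over all genes, 33.4% and 37.8% in SAN and 35.7% and 36.8% in atria. NPPA again stood at one end and GJA5 at the other.

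Factors that act with T-box proteins or upstream of their genes were also counted, and all 15 were in the table. At t0, 10 were higher in SAN and 4 lower, against 18.7% and 17.1% of all genes, from HAND1, a bHLH factor, at -3.14 to SHOX2 at 6.23. With culture, 6 rose and 3 fell in SAN, against 25.3% and 26.1% of all genes, and 6 rose and 2 fell in atria, against 29.2% and 29.8%. MSX1, a homeodomain partner of TBX2 and TBX3, rose the most in SAN (2.28), and MSX2, its paralog, rose the most in atria (3.60). Under CN03, 1 rose and 9 fell in SAN (median -0.75), where 33.4% of all genes rose and 37.8% fell (median -0.06). In atria, 4 rose and 8 fell (median -0.40), where 35.7% of all genes rose and 36.8% fell (median -0.01). The lowest in SAN was MEF2C, a MADS-box activator of heart muscle genes, at -2.06 (SE 0.169, limma adjusted p = 1.77e-10). In atria, HAND1 was lowest at -1.88 and MSX1 highest at 3.09 (SE 0.278, adjusted p = 7.22e-10).

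BMP signals activate TBX2 and TBX3 in the atrioventricular canal, and HEY factors limit where TBX2 is made. Genes of the BMP and retinoic acid pathways were listed together with the HEY factors HEY1 and HEY2, and all 24 were in the table. At t0, 10 were higher in SAN and 5 lower, against 18.7% and 17.1% of all genes, led by BMP2 at 4.12 (SE 0.171, limma adjusted p = 4.55e-14). Under CN03, 5 rose and 8 fell in SAN, against 33.4% and 37.8% of all genes, and 12 rose and 9 fell in atria, against 35.7% and 36.8%. The falls in both tissues were near the share over all genes. HEY2 rose the most in both, by 4.17 in SAN (SE 0.168, adjusted p = 1.53e-15) and 3.77 in atria (adjusted p = 3.13e-15). BMPR1B, a BMP receptor, was lowest in SAN at -2.05, and BMP5 was lowest in atria at -2.50. With culture, 6 rose and 7 fell in SAN and 7 rose and 9 fell in atria (25.3% and 26.1% of all genes in SAN, 29.2% and 29.8% in atria), and CYP26A1, which degrades retinoic acid, was the lowest in both, at -2.37 and -2.07.

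Markers of the cell types in the tissue were counted over the same comparisons, and their counts with CN03 are to be read against 33.4% of all genes rising and 37.8% falling in SAN, and 35.7% and 36.8% in atria. With CN03 against vehicle, 10 of 12 cardiomyocyte markers fell and none rose in SAN, while 7 fell and 1 rose in atria. The summed linear level of that list had medians of 11015 with vehicle and 7367 with CN03 in SAN, and of 25225 and 19725 in atria. Of 10 pacemaker markers, 8 fell and 2 rose with CN03 in SAN, and 6 fell and 3 rose in atria. Working atrial muscle markers, 8 of 9 in the table, rose in 6 cases and fell in 2 in SAN, and rose in 6 and fell in 1 in atria. Fibroblast markers numbered 12, of which 7 fell and 3 rose in SAN and 6 fell and 3 rose in atria, although their summed level, which is carried by the most abundant genes, was higher with CN03 (medians 12088 against 9607 in SAN and 14459 against 7741 in atria). Endothelial markers, 14 in all, fell in 6 cases and rose in 2 in SAN and rose in 11 and fell in 1 in atria. Macrophage markers, 10 of 11 in the table, fell in 9 cases in each tissue and rose in none, with C1QA at the table's lowest value in 2 libraries and C1QC in 4. Of 7 neural markers, 2 rose and 2 fell in SAN and 3 rose and 1 fell in atria, and of 7 erythroid markers none was called in SAN and 5 fell in atria. The part of these cell types in the changes of the T-box genes was not tested.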

How the data were processed

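Total RNA depleted of ribosomal RNA was sequenced as paired-end reads from a stranded library kit. The authors mapped the reads with Kallisto, filtered genes with edgeR and used limma, and the submitters' processing notes name the GRCg7b build; versions and the normalization are not given in the sources used here. The deposited table holds 1 log2 expression value per gene symbol and library, already filtered and normalized by the authors. Depth is unknown, so no counting error could be given. The lowest value, -5.87, occurred in 22 libraries. All value columns were mapped to a sample by name. The entry with no symbol, between 6.58% and 17.9% of the linear sum of a library, was left out.

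A mean for each of 6 groups was fitted to the deposited log2 values of 12422 genes with limma 3.58.1 in R 4.3.3 (18 residual degrees of freedom, empirical Bayes with a mean-variance trend, Benjamini-Hochberg adjustment over all genes). The script was tested on simulated data. Differences between tissues in a response were contrasts in the same fit. Plots used matplotlib 3.10.9 (Python 3.11.15), and gene positions came from the NCBI gene table of GRCg7b.

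The 5 genes and the gene lists were chosen with earlier results of these data known. Genes named were the 5, the largest and smallest change of each list in a comparison, and the 5 genes most like each of the 5 by Pearson r. Further epicardial markers were named to show changes in both directions. Alternatives were a replicate block, quantile normalization, median centring, a pseudocount of 1, a mean log2 level above 2, no trend, a test against a Log2FC of 0.5, a fit of only the groups compared, and leaving out each library. Per the study's methods, a pool held SAN and atrial preparations. Deviations of same-numbered pools from their group means correlated with a mean r of 0.165 over genes. Every same-numbered pair passed 0.1 for SAN and atria at t0 (lowest r 0.112) and for vehicle and CN03 in atria (lowest r 0.246). The numbers were thus taken to pair the pools in those comparisons. Also there, values given without mention of the replicate block are those of the fit without it. SAN and atria with CN03, and vehicle and CN03 in SAN, fell short of 0.1 (lowest r 0.0628 and -0.0906). In each of these, 6 of 8 libraries still correlated best with their own number. Whether the numbers pair the pools there is not known. The block gave each pool number 1 effect shared by all 6 groups, and no fit paired the pools of 1 comparison alone.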

Additional observations from a re-analysis of the deposited data

Results flagged for a closer look

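In CN03-treated SAN, the highest TBX5 pool, at 6.48, stood apart from the other 3, the nearest of which was at 6.30. The highest TBXT pool of CN03-treated atria, at 1.55, stood apart from the nearest at 0.86. These were the 2 pools set apart by Dixon's test among 71 groups of 4 pools over all T-box genes of the table, where chance sets apart about 1 group in 20.

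The 5 genes and the 7 other T-box genes of the table were all checked for a difference in response. The response to CN03 differed between SAN and atria, in limma's test of the difference itself, for TBX3 (-2.08, SAN minus atria), TBX1 (-2.26), TBXT (-1.79) and TBX5 (0.77). For the first 3, the higher response was that of atria, and for TBX5 the fall in atria was deeper. Over all genes, 15.4% had a negative difference that was called and 11.7% a positive one. The TBX5 call was lost in 11 of 16 fits that left out 1 library and after quantile normalization (limma adjusted p = 0.099). The response to culture differed between the tissues for TBX1, by 1.83, with the higher response in SAN. There, 6.89% of all genes had a positive difference that was called and 6.09% a negative one.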

How the results depend on the processing

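None of the 55 Log2FC values of the 5 genes, over 11 comparisons, reversed as a call under any alternative. With the replicate block, 53 kept their side of the threshold and 2 moved past it, TBX5 between the tissues at t0 (-0.49, adjusted p = 0.0155) and TBX20 between the tissues with CN03 (-0.38, adjusted p = 0.0491); the block changed no other call. Outside the comparisons that the numbers paired, between 1 and 6 of 8 libraries correlated best with their own number. Freshly isolated SAN and vehicle-treated atria, which were not compared, had 7 of 8 and the highest mean r of any pair of groups (0.310). A pseudocount of 1 and a mean log2 level above 2 kept all 55, quantile normalization 52, median centring and no trend 54 each, and a fit of only the groups compared 53. Tested against a Log2FC of 0.5, 45 kept their side: of the 5 genes, 1 was then called between the tissues with CN03, 1 with culture in SAN and 3 in CN03-treated SAN against t0. The count for the tissue difference in the CN03 response was 1 with quantile normalization, no trend and that test. Leaving out 1 library at a time kept 491 of 520 calls, weakened 18 and gave 11 more; the counts ran from 0 to 1 for the tissue difference in the culture response and from 1 to 2 for that in the CN03 response, and the cause was not tested. Scaling moved the median Log2FC of all genes by under 0.1. With 4 pools a group and no read counts, changes near the standard errors of 0.149 to 0.244 could not be resolved.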

Other observations

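Of 15 other T-box genes listed, 7 were in the table: TBX1, TBX6, TBX22, TBXT, EOMES, TBR1 and MGA. TBX1, which acts in the pharynx and the outflow tract, was higher in SAN than atria at t0 by 1.87 (SE 0.250, limma adjusted p = 2.5e-06) and with vehicle by 3.70 (adjusted p = 6.31e-11). With vehicle its mean log2 level was 4.15 ± 0.374 (SD, n = 4) in SAN and 0.45 ± 0.230 in atria, and with CN03 it was 3.62 ± 0.130 and 2.17 ± 0.277. In atria, TBX1 rose with CN03 by 1.72 (SE 0.250), without overlap between the CN03-treated and vehicle-treated pools, and in SAN its change was -0.53 (limma adjusted p = 0.0593). The difference between these responses, like that of TBX3, was negative, at -2.26 (SE 0.353, limma adjusted p = 5.72e-05).

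EOMES, a factor of mesoderm and lymphocytes, was at the table's lowest value in all 4 pools of freshly isolated atria and in 2 of freshly isolated SAN, so no fold change against t0 is given. With CN03 against vehicle it rose by 2.76 in SAN (SE 0.455, limma adjusted p = 1.02e-05) and by 3.72 in atria (adjusted p = 1.17e-07). Its levels remained low, at 0.39 ± 0.198 (log2, SD, n = 4) in CN03-treated SAN and 0.27 ± 0.450 in atria. TBXT, the founding T-box gene, was higher with CN03 than vehicle in atria by 1.89 (SE 0.309), also from a low level, -0.89 ± 0.565 with vehicle. TBX22, a gene of palate formation, was the lowest of the 7 with CN03 in SAN, at -1.62 (SE 0.668, limma adjusted p = 0.0344). Its pools overlapped and its levels were low, at -0.91 ± 1.09 (log2, SD, n = 4) with vehicle and -2.53 ± 0.962 with CN03.

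In 5 of the 6 groups, replicates 2 and 3 held the 2 highest TBX18 values, a pattern noticed after the values were seen and not tested; the exception was CN03-treated atria, where replicates 3 and 4 did.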
